A study of Mus musculus with 6 samples.

Results

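The annexin family was followed in primary mouse fibroblasts exposed to the chemokine CXCL3 and in control cells. The members were taken by name: the rows of the expression table for Anxa1, Anxa2, Anxa3, Anxa4, Anxa5, Anxa6, Anxa7, Anxa8, Anxa9 and Anxa11, which make 10 of the 51912 genes in the table. The family was selected on its name with the TPM values of the same contrast in view, in which Anxa8 had been called higher with CXCL3. The fold changes and p-values given for annexins below therefore describe these libraries and are not independent support for a change.

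Annexins are cytosolic proteins that bind negatively charged phospholipids when calcium rises, through a conserved core of repeats, while a short variable N-terminal tail sets what else each member binds. They take part in membrane repair, vesicle traffic and, outside the cell, in clotting, fibrinolysis and the damping of inflammation. In fibroblasts and other mesenchymal cells several of them are among the abundant cytoplasmic proteins.

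The CXCL3 group held 3 libraries of primary fibroblasts treated with CXCL3, a secreted ligand of the receptor CXCR2, for 48 h, and the control group held 3 libraries of cells labelled as control. All 6 libraries, controls included, are labelled with a time of 48 h and an age of 6 weeks, and no strain, sex, organ or dose is given for either group. The labels do not say that replicates were separate cultures or animals, so p-values measure the spread between these libraries, which may be technical. Values are in TPM, the share of all transcripts that a gene's transcripts make up, corrected for length, which keeps no depth, so the depth is unknown and no counting interval is given.

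The libraries did not vary alike. Controls 2 and 3 stood apart from control 1 and the 3 CXCL3 libraries on the first principal component, which held 52.9% of the variance, and in how gene levels followed transcript length. The labelled cell type was mixed in its markers: 8 of 9 fibroblast markers passed the filter on low values (Lum, the proteoglycan lumican, stayed at 0.06 to 0.50 TPM), but so did 10 of 10 macrophage markers. The macrophage markers summed to 14683 to 14776 TPM in CXCL3 libraries and 14755 to 17797 TPM in controls, most of it the lysozyme gene Lyz2, and the fibroblast markers to 3226 to 3324 and 3129 to 4175 TPM. Epithelial, T and B cell and mast cell lists had no marker past the filter. The endothelial (Kdr), mesothelial (Wt1), neutrophil (S100a8) and keratinocyte (Krt10) lists had 1 each. Kdr was at 0.71 to 1.32 TPM and Krt10 at 1.24 to 2.31 TPM, while Wt1 was at 22.1 to 33.3 TPM and S100a8 at 529.1 to 668.7 TPM. The fibroblast marker Col3a1, a fibrillar collagen gene, averaged 195.5 ± 7.91 TPM in CXCL3 libraries and 407.5 ± 56.5 TPM in controls (log2 fold change -1.05, limma, adjusted p = 0.0293) and was the 1 marker of either cell type to pass. The groups of 5 other tested markers did not overlap, but their fold changes did not pass. They were the fibroblast markers Dcn (-0.15) and Vim (0.12) and the macrophage markers C1qb (-0.42), Lyz2 (-0.14) and Mrc1 (0.53). Among all genes tested, 17.2% had groups that did not overlap and 0.16% passed. Annexins are expressed by macrophages as well as fibroblasts, and in whole cultures fewer cells of a type and less RNA per cell cannot be told apart. The part of these markers in the annexin values was not tested.

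The annexin genes lie apart from each other in the mouse genome build GRCm38. Anxa8 (ENSMUSG00000021950) lies on the plus strand of chromosome 14 from 34085981 to 34100571, Anxa2 (ENSMUSG00000032231) on the plus strand of chromosome 9 from 69453620 to 69491795, and Anxa5 (ENSMUSG00000027712) on the minus strand of chromosome 3 from 36448923 to 36475894. Anxa7 and Anxa11 also lie on chromosome 14, Anxa9 on chromosome 3, Anxa1 on chromosome 19, Anxa3 on chromosome 5, Anxa4 on chromosome 6 and Anxa6 on chromosome 11. The 250 bases before the annotated start are printed for the 3 annexins whose levels lay farthest between the groups, 5′ to 3′ on the gene's strand from RefSeq (GRCm38.p6), with matches to the motifs described next in capitals. The windows are chr14:34085729-34085978 for Anxa8, chr9:69453433-69453682 for Anxa2 and chr3:36475888-36476137 for Anxa5.
Anxa8: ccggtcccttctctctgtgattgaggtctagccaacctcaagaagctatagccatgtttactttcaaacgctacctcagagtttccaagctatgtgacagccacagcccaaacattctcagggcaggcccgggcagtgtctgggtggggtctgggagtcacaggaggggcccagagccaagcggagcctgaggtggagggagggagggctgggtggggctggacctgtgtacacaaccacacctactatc
Anxa2: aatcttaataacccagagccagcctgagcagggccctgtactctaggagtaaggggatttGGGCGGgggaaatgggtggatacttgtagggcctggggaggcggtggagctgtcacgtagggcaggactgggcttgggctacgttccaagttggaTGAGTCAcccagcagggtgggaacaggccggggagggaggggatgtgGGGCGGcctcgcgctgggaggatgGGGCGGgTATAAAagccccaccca
Anxa5: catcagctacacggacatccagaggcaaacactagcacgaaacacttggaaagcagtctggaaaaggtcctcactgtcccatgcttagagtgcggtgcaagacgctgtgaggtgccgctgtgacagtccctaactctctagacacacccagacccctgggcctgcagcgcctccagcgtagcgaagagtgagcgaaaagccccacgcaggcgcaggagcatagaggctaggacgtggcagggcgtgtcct

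Both strands of these windows were searched for the TATA box (TATAAA), the GC box (GGGCGG), the CCAAT box (CCAAT), the AP-1 site (TGANTCA) and the core of the antioxidant response element (TGACNNNGC), and a match was counted also where it overlapped one of another motif. None of the 5 motifs matched in the Anxa8 or the Anxa5 window. The Anxa2 window held 3 GC boxes, 1 TATA box starting 17 bases before the RefSeq start and 1 AP-1 site starting 95 bases before it. The Anxa2 and Anxa5 windows reach into the gene spans given above, so distances hold for the RefSeq start only. Of 32851 mouse promoter windows of the same length, 32.7% held a GC box, 12.4% a TATA box, 6.7% an AP-1 site, 33.8% a CCAAT box and 10.2% an antioxidant response element core. The Anxa8 window held 4 CpG dinucleotides, the Anxa2 window 9 and the Anxa5 window 13. Windows were found for 8 of the 10 members, and some members had 2 windows. Among the other 5 members the Anxa1 window had a TATA box 32 bases before the start, the Anxa11 window held 3 GC boxes, the Anxa7 windows 4 and 1, and 1 window each of Anxa4 and Anxa9 held an antioxidant response element core. A match is a description of the letters and not evidence of a bound factor.

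Reads of one annexin could hardly be taken for another. The longest coding transcript of each member was cut into all stretches of 50 bases, and 0 of them occurred in the transcripts of another annexin gene. For Anxa1, Anxa2, Anxa3, Anxa5, Anxa6, Anxa7 and Anxa8, 0% of these stretches occurred in any other annotated gene. Anxa4 shared 1.46% with Gm44036, which was listed at 0 TPM throughout. Anxa11 shared most, with 28.9% of its stretches in the pseudogenes Gm2260 and Gm2274 or the antisense gene Anxa11os. Gm2260 was listed at 0 to 12.5 TPM and Gm2274 at 3.56 to 17.8 TPM, so the division of reads makes the level of Anxa11 uncertain. Anxa9 shares 1.21% with Mindy1, a gene on the opposite strand at 69.5 to 83.8 TPM, and counting by strand is not stated. Anxa8 overlaps A630023A22Rik on the opposite strand, listed at 0 to 1.4 TPM, with a mean of 0.447 TPM.

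The members differed widely in level, and their order was almost the same in both groups. By mean TPM over the 6 libraries Anxa2 ranked 214 and Anxa8 4749 of the 13139 genes tested. Anxa2, whose product pairs with S100a10 and binds tissue plasminogen activator and plasminogen at the cell surface, stood first, with a mean of 748.5 ± 2.24 TPM in CXCL3 libraries and 619.6 ± 18.1 TPM in controls (SD, n = 3 each, as throughout). Anxa1, the anti-inflammatory annexin induced by glucocorticoids and recognised by the receptor Fpr2, and Anxa5, the phosphatidylserine binder used to stain dying cells, followed. Anxa1 lay above Anxa5 in 3 of 3 CXCL3 libraries, with ratios of 1.16, 1.18 and 1.19, and below it in 3 of 3 controls, with ratios of 0.989, 0.780 and 0.930. That exchange was the single difference in rank, and in controls the ranges of Anxa1 and Anxa5 overlapped. Every other pair of neighbours was separate in both groups. The order then ran through Anxa3, Anxa6, an annexin with a longer core linked to endocytosis, Anxa7, the sorcin-binding synexin, Anxa4, Anxa11, which binds S100a6 and Pdcd6, Anxa8 and Anxa9. The 4 highest members held 83.2% to 83.8% of all annexin TPM in CXCL3 libraries and 82.3% to 84.8% in controls.

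**Figure D1:**
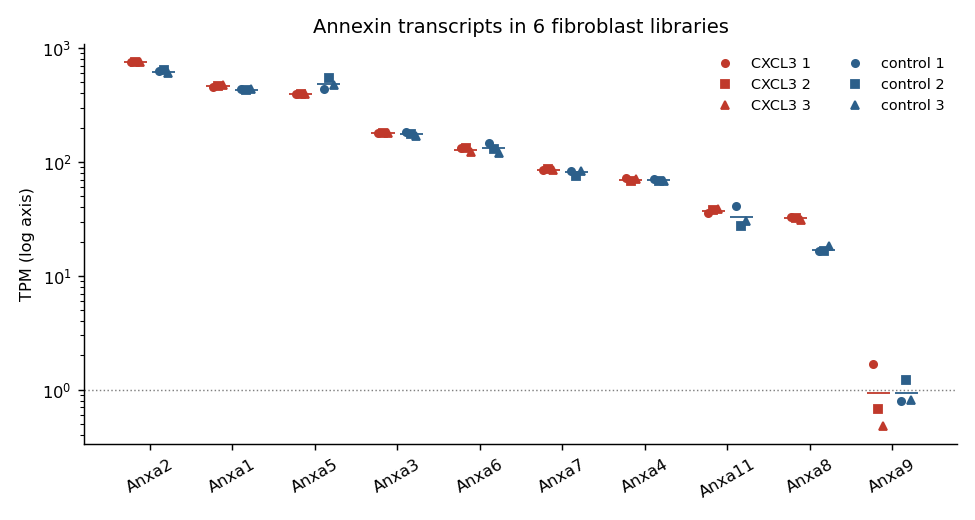
Level of each of the 10 annexins in each library, in TPM on a log axis, with CXCL3 libraries (red) left of controls (blue). Lines are group means, and the dotted line is 1 TPM. Anxa8 is the member whose groups lie farthest apart, and Anxa9 straddles 1 TPM.

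Anxa9, a member whose human counterpart lacks working calcium sites, was nearly silent. It was listed at 1.67, 0.68 and 0.48 TPM in CXCL3 libraries 1, 2 and 3, and at 0.79, 1.23 and 0.81 TPM in controls 1, 2 and 3. It reached 1 TPM in 2 libraries, where the filter asked for 3, so it was not tested, and the groups overlapped. The other 9 members were at 1 TPM or more in all 6 libraries, the lowest of them Anxa8. The annexin genes outside the list, Anxa10 and Anxa13, were at 0 to 0.1 TPM.

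Anxa8 stood out between the groups. The human protein was first described as an anticoagulant annexin and is known from late endosomes. It was at 33.1, 32.1 and 30.7 TPM in CXCL3 libraries 1, 2 and 3, and at 16.4, 16.5 and 18.2 TPM in controls 1, 2 and 3. The groups did not overlap, and controls 2 and 3 lay beside control 1. The ratio of the means was 1.88, and the log2 fold change, CXCL3 minus control, on log2(TPM + 1) was 0.87 ± 0.09 (SE; limma, adjusted p = 0.0293 over all 13139 genes tested). Anxa8 had the eighth smallest p of them and was 1 of the 9 annexins tested to pass the threshold of 0.05, where 0.16% of all genes passed, and 0.0304% in this direction. The call was lost with no filter (adjusted p = 0.107), median-of-ratios scaling (0.0983), quantile normalization (0.0669), a fit without the mean-variance trend (0.108) and the replicate number as a block (0.0581), and without any 1 library other than control 1 (0.0946 to 0.239). Its log2 fold change lay between 0.75 and 0.92 in all 17 other settings, and it was 0.92 against control 1 alone.

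Anxa2 was higher in every CXCL3 library than in any control, by a smaller margin. It was at 746.6, 751.0 and 748.1 TPM in CXCL3 libraries 1, 2 and 3, and at 622.9, 635.9 and 600.2 TPM in controls 1, 2 and 3. The CXCL3 libraries were almost equal and the groups did not overlap. The log2 fold change was 0.27 ± 0.06 and did not pass over all genes (limma, adjusted p = 0.157). It passed without control 1 (0.00831) and with library weights (0.0292), settings in which 32.4% and 11% of all genes passed. Its direction was the same in all 17 settings.

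Anxa5 lay the other way. It was at 392.5, 392.9 and 396.3 TPM in CXCL3 libraries 1, 2 and 3, and at 437.4, 544.2 and 472.8 TPM in controls 1, 2 and 3. The groups did not overlap, but the SD was 2.06 TPM among CXCL3 libraries and 54.4 TPM among controls, with control 2 the highest. The log2 fold change was -0.29 ± 0.09 (limma, adjusted p = 0.302), and it was -0.21 without control 2 and -0.15 with control 1 as the sole control. It passed without control 1 (0.0103) and with library weights (0.0353).

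Within a library the ratio of 2 annexins does not depend on how libraries are scaled to each other. The ratio of Anxa2 to Anxa5 was 1.90, 1.91 and 1.89 in CXCL3 libraries 1, 2 and 3, and 1.42, 1.17 and 1.27 in controls 1, 2 and 3. The 3 CXCL3 values were nearly equal and all lay above the controls. Anxa2 lay above and Anxa5 below every control, so this order of the ratios follows from their levels and is no further support. Anxa2 made up 34.94% to 35.01% of annexin TPM in CXCL3 libraries and 29.96% to 30.57% in controls, and Anxa5 18.3% to 18.5% and 21.5% to 25.9%. Anxa8 made up 1.43% to 1.55% in CXCL3 libraries and 0.785% to 0.906% in controls.

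**Figure D2:**
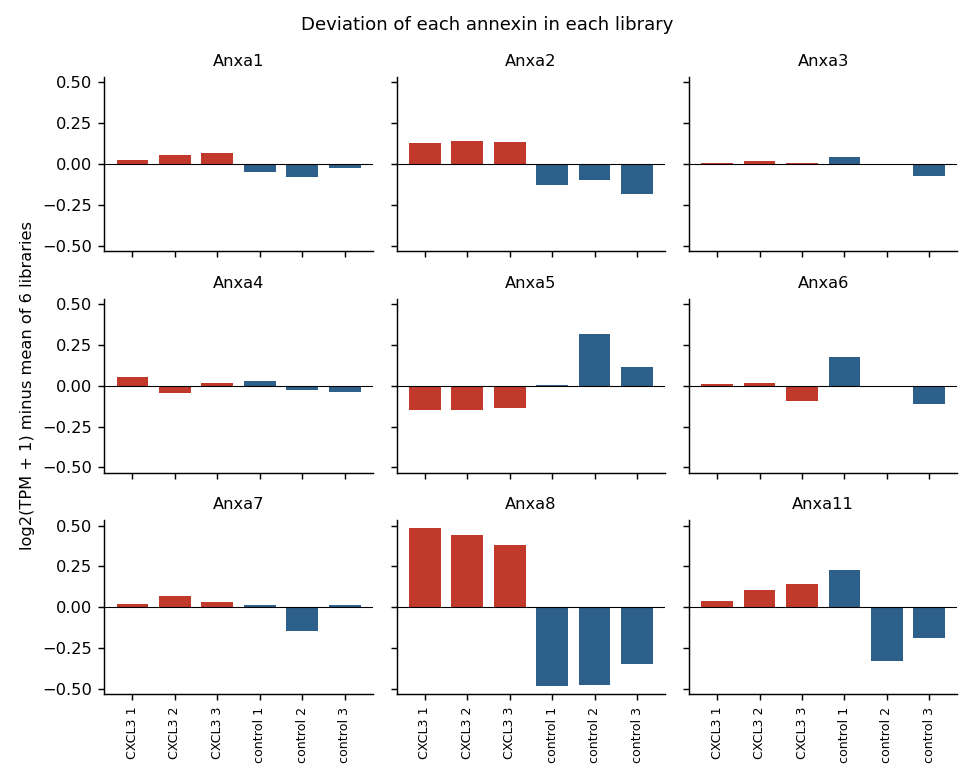
Deviation of each tested annexin from its mean over the 6 libraries, in log2(TPM + 1), with CXCL3 libraries in red and controls in blue. Anxa8, Anxa2 and Anxa1 lie above their mean in every CXCL3 library and below it in every control, and Anxa5 the other way. Anxa7 divides by group only just. Anxa5 is highest in control 2, and Anxa11, Anxa6 and Anxa3 are highest in control 1.

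The remaining 6 members tested had smaller log2 fold changes, from -0.04 for Anxa6 to 0.19 for Anxa11. Anxa1 was at 455.7, 465.0 and 470.1 TPM in CXCL3 libraries 1, 2 and 3, and at 432.6, 424.3 and 439.8 TPM in controls 1, 2 and 3, without overlap. Its log2 fold change was 0.10 ± 0.06, with a 95% interval of -0.03 to 0.23 (limma, adjusted p = 0.472). Anxa7 was at 84.3 to 87.5 TPM in CXCL3 libraries and 75.1 to 84.1 TPM in controls, so that the groups only just did not overlap (log2 fold change 0.08, adjusted p = 0.61).

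Anxa3 was at 179.2 to 180.8 TPM in CXCL3 libraries and 169.2 to 183.9 TPM in controls, and Anxa4 at 67.4 to 72.3 and 67.8 to 71.1 TPM. Both overlapped between the groups, with 95% intervals of the log2 fold change of -0.12 to 0.17 for Anxa3 and -0.14 to 0.18 for Anxa4. Anxa6 was at 131.3, 132.0 and 122.2 TPM in CXCL3 libraries 1, 2 and 3, and at 147.3, 129.9 and 120.4 TPM in controls 1, 2 and 3, with an interval of -0.25 to 0.17.

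Anxa11 varied most among controls. It was at 35.8, 37.6 and 38.5 TPM in CXCL3 libraries 1, 2 and 3, and at 41.0, 27.4 and 30.4 TPM in controls 1, 2 and 3. Control 1 lay above every CXCL3 library and controls 2 and 3 below, so the sign of the log2 fold change (0.19 ± 0.15, adjusted p = 0.537) depended on the controls used: it was 0.36 without control 1 (adjusted p = 0.0150) and -0.13 against control 1 alone. Across genes, Spearman's rho between transcript length and how far a gene lay from its mean over all libraries was -0.50 in control 2, -0.48 in control 3 and 0.45 in control 1. Anxa11, with a longest transcript of 2733 bases, differed by -0.49 on the log2 scale (controls 2 and 3 minus control 1). The longer Anxa7 (2904 bases) differed by -0.08, Anxa4 (2623 bases) by -0.06 and Anxa6 (2489 bases) by -0.23. Among the shorter members, Anxa2 (2280 bases) differed by -0.01, Anxa8 (1880 bases) by 0.07 and Anxa5 (1731 bases) by 0.21. Anxa1 (1674 bases) differed by -0.0023 and Anxa3 (1595 bases) by -0.09. The part of length in these differences was not tested. With the trends in length and GC taken out the log2 fold change of Anxa11 was 0.15 (adjusted p = 0.494).

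Across the 9 members tested, 5 had groups that did not overlap, 4 above and 1 below controls, where 17.2% of all genes tested had such groups, 7.92% above and 9.31% below. An unadjusted p under 0.05 was found for 3 of the 9 and for 11.6% of all genes. Since the family was chosen with the contrast known, these counts are given as a description. The median log2 fold change was 0.08 for the 9 annexins and 0.07 for all genes. The median SD among 3 libraries was 0.03 for annexins with CXCL3 and 0.08 among controls, on the log2 scale, where all genes had 0.09 and 0.20.

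**Figure D3:**
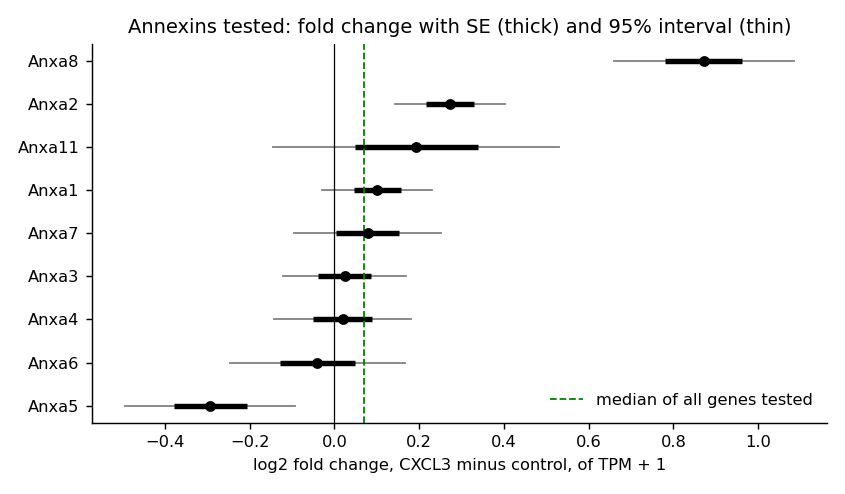
Log2 fold change of the 9 annexins tested, CXCL3 minus control on log2(TPM + 1), with the SE as a thick and the 95% interval as a thin line. The dashed line is the median of all genes tested (0.07). Anxa8 (0.87) lies far to the right of the others, and Anxa5 (-0.29) to the left.

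The summed level of the 10 annexins was nearly level between groups. It was 2132, 2147 and 2141 TPM in CXCL3 libraries 1, 2 and 3, and 2038, 2100 and 2004 TPM in controls 1, 2 and 3. The CXCL3 libraries lay above all controls, by a difference in means of 93.0 TPM, or 4.54%. With median-of-ratios scaling the difference turned to -29.0 TPM, so its direction rests on the scaling. The annexins made up 0.217% to 0.218% of the table's TPM in CXCL3 libraries and 0.203% to 0.213% in controls.

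The genes most like Anxa8 over the 6 libraries were taken as the 5 with the smallest root mean square difference from it in log2(TPM + 1), after centring each gene, among 9452 protein-coding genes with a mean of at least 5 TPM. They were Atoh8, a bHLH transcription factor gene (difference 0.05), Il1rn, the interleukin-1 receptor antagonist gene (0.10), Pold1, of the catalytic subunit of DNA polymerase delta (0.12), Nqo1, a quinone reductase gene (0.12), and Cd24a, a surface glycoprotein gene (0.13). Atoh8 was at 6.97 ± 0.41 TPM in CXCL3 libraries and 3.52 ± 0.43 TPM in controls and did not pass (limma, adjusted p = 0.11). Of the others, Il1rn (0.0419) and Nqo1 (0.0293) passed, and Pold1 (0.11) and Cd24a (0.117) did not. Genes picked for the pattern of Anxa8 share its division by group by construction, so they are no further support. Within the family the closest to Anxa8 was Anxa2, at a difference of 0.31, and every other tested annexin had Anxa8 as its farthest member. The closest pair was Anxa3 and Anxa4, at 0.04.

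Genes of proteins that work with annexins were read from 4 lists with 49 members, of which 43 passed the filter. None of the 43 passed over all genes in either direction (limma), 9 had an unadjusted p under 0.05 (beside 11.6% of all genes), and 11 (25.6%) had groups that did not overlap, beside 17.2% of all genes. Without control 1, 24 of the 43 passed, beside 32.4% of all genes, 13 passed with library weights, beside 11% of all genes, and 1 passed with control 1 as the sole control, beside 0.639%.

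Of the 8 annexin-binding EF-hand genes, all tested, 2 had a positive and 6 a negative log2 fold change, with a median of -0.06. S100a10, the partner of Anxa2, was at 279.5, 283.5 and 289.5 TPM in CXCL3 libraries 1, 2 and 3, and at 259.5, 344.4 and 290.1 TPM in controls 1, 2 and 3. The groups overlapped, with control 1 below and control 2 above every CXCL3 library (log2 fold change -0.06, 95% interval -0.30 to 0.18). The ratio of Anxa2 to S100a10 was 2.67, 2.65 and 2.58 in CXCL3 libraries 1, 2 and 3, and 2.40, 1.85 and 2.07 in controls 1, 2 and 3.

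S100a11, which binds Anxa1, averaged 2190 ± 31.3 TPM in CXCL3 libraries and 2504 ± 225 TPM in controls without overlap (log2 fold change -0.19, limma, adjusted p = 0.426). S100a6, which binds Anxa11, averaged 1897 ± 28.6 and 1798 ± 223 TPM (0.08, 0.653). S100a4, a fibroblast-associated S100 gene, averaged 770.2 ± 24.3 TPM in CXCL3 libraries and 609.6 ± 74.4 TPM in controls without overlap (0.34, 0.266). Sri, the sorcin gene, averaged 107.5 ± 4.93 and 126.6 ± 7.94 TPM, also without overlap (-0.23, 0.347). Pdcd6 averaged 126.1 ± 5.99 and 133.7 ± 5.57 TPM, with overlap (-0.08, 0.565).

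The list of ligands and receptors of annexins A1 and A2 had 8 of 10 members tested, 5 positive and 3 negative, with a median of 0.14. Fpr1, the receptor for bacterial formyl peptides, was at 156.9, 156.2 and 155.1 TPM in CXCL3 libraries 1, 2 and 3, and at 188.2, 175.5 and 198.8 TPM in controls 1, 2 and 3. Fpr2, through which Anxa1 signals, was at 74.95, 74.32 and 73.75 TPM in CXCL3 libraries 1, 2 and 3, and at 86.51, 85.72 and 103.57 TPM in controls 1, 2 and 3. Both lay below every control, with log2 fold changes of -0.26 and -0.30 that did not pass (limma, adjusted p = 0.263 and 0.312). Both receptors are best known from myeloid cells, and of the 10 macrophage markers 5 had a positive and 5 a negative fold change. The groups did not overlap for C1qb and Lyz2, lower with CXCL3, or for Mrc1, higher with it. Of the 5 positive markers, Adgre1, Csf1r, Itgam and Ptprc were higher in control 1 than in every CXCL3 library, and Mrc1 was lower. Of the 5 negative markers, C1qb, Lyz2 and Cd14 were higher in control 1 than in every CXCL3 library. For Cd68 and Fcgr1, control 1 lay within the range of the CXCL3 libraries. The part of these markers in the receptor values was not tested. Pla2g4a, the cytosolic phospholipase A2 gene whose product annexins can inhibit, was at 145.7, 147.0 and 142.4 TPM in CXCL3 libraries 1, 2 and 3, and at 134.3, 89.2 and 105.7 TPM in controls 1, 2 and 3 (0.42, adjusted p = 0.349). Plat, the tissue plasminogen activator gene, averaged 65.2 ± 1.81 and 63.2 ± 9.55 TPM, and Plg, the plasminogen gene, was at 0 to 0.03 TPM. Plgrkt, also on this list, averaged 34.6 ± 2.61 TPM in CXCL3 libraries and 40.3 ± 1.05 TPM in controls without overlap (-0.22, limma, adjusted p = 0.422).

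**Figure D4:**
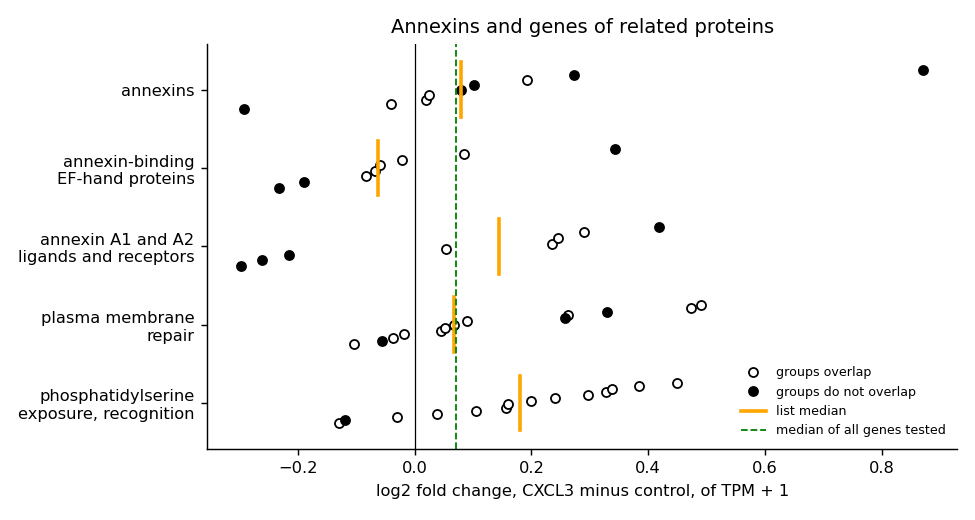
Log2 fold change, CXCL3 minus control, of the annexins and of the genes tested in 4 related lists, 1 point a gene. Filled points are genes whose groups do not overlap, orange bars list medians, and the dashed line the median of all genes (0.07). Anxa8 lies to the right of every gene of the 4 lists.

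Plasma membrane repair had 13 of 14 members tested, 9 positive and 4 negative, with a median of 0.07. The calpain gene Capn2 averaged 115.1 ± 1.81 TPM in CXCL3 libraries and 92.3 ± 15.3 TPM in controls (0.33, limma, adjusted p = 0.371), and Capn1 37.4 ± 1.25 and 31.2 ± 3.76 TPM (0.26, 0.422). The ferlin genes divided the controls: Myof was at 86.5, 86.3 and 78.2 TPM in CXCL3 libraries 1, 2 and 3, and at 89.0, 49.0 and 47.5 TPM in controls 1, 2 and 3. Dysf, the dysferlin gene, was at 9.06, 8.56 and 7.14 TPM in CXCL3 libraries 1, 2 and 3, and at 8.58, 4.60 and 4.46 TPM in controls 1, 2 and 3. In both, control 1 lay with the CXCL3 libraries. Their fold changes (0.49 and 0.47) became -0.09 and -0.06 against control 1 alone.

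Phosphatidylserine exposure and recognition had 14 of 17 members tested, 11 positive and 3 negative, with a median of 0.18. The scramblase gene Ano6 and the receptor tyrosine kinase gene Axl had the same division among controls. Ano6 was at 69.6, 67.5 and 63.5 TPM in CXCL3 libraries 1, 2 and 3, and at 68.8, 41.2 and 40.5 TPM in controls 1, 2 and 3, and Axl averaged 278.1 ± 18.5 and 218.9 ± 66.9 TPM. Mfge8, of a bridging protein that binds phosphatidylserine as Anxa5 does, averaged 265.5 ± 2.48 TPM in CXCL3 libraries and 288.8 ± 11.6 TPM in controls, without overlap (-0.12, limma, adjusted p = 0.457). Gas6, of the ligand of Axl, averaged 128.0 ± 3.85 and 114.7 ± 11.003 TPM.

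**Figure D5:**
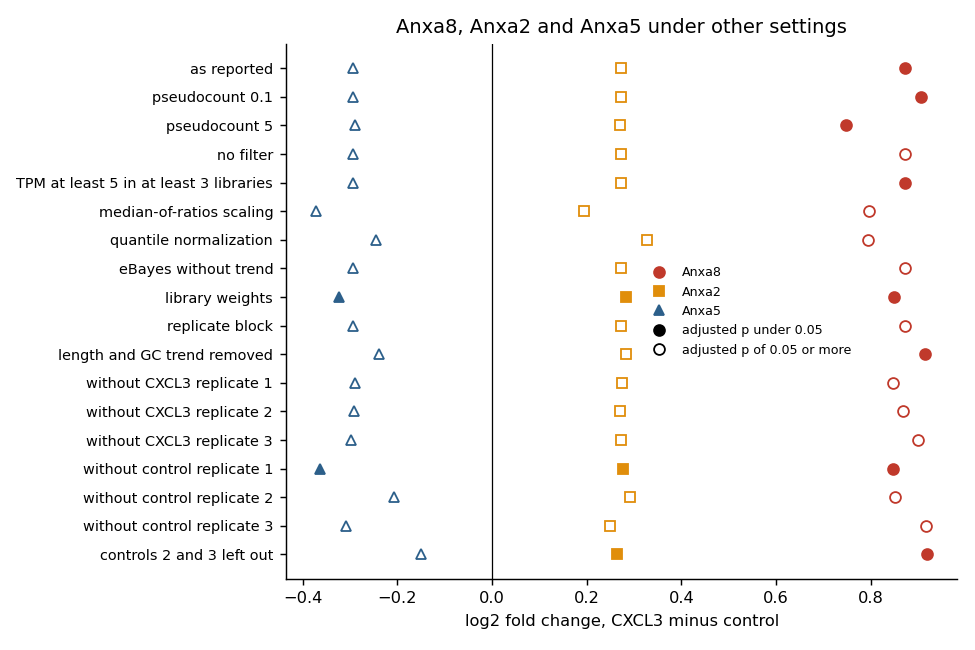
Log2 fold change, CXCL3 minus control, of Anxa8, Anxa2 and Anxa5 as reported and in 17 other settings, with filled symbols where the adjusted p was under 0.05. The 3 genes keep their sign throughout, while the calls move with the libraries and the scaling.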

How the data were processed

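RNA sequencing of 6 libraries was used. Per the submitters' processing notes, fastp, HISAT and RSEM and the build GRCm38.p5 were used, with no versions or order, and the authors deposited TPM for 51912 genes, 1 column a library, with 0 columns of other samples. Neither an annotation release nor a strand setting was stated. Identifiers matched GENCODE mouse M21 for 51719 genes. Genes with at least 1 TPM in at least 3 libraries (13139) were tested on log2(TPM + 1), CXCL3 minus control, two-sided, with limma (version 3.58.1, R 4.3.3, trended eBayes) and Benjamini-Hochberg adjustment over all of them, at a threshold of 0.05. A fold change on this scale understates that of low genes. An exact permutation test of 3 libraries against 3 has a smallest p of 0.1 and was not used. On simulated data of 13139 genes the fit called 68.3% of genes changed 2-fold, with 5.8 false calls a run.

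The members, gene lists and tests were chosen with earlier results of these data known. All listed annexins are named, with up to 4 genes of each related list by smallest p, 7 fixed partner genes and the 5 nearest neighbours of Anxa8. The fibroblast and macrophage markers Lum, Lyz2, Col3a1, Dcn, Vim, C1qb, Mrc1, Adgre1, Csf1r, Itgam, Ptprc, Cd68, Cd14 and Fcgr1 were named after their values were seen. So were the markers Kdr, Wt1, S100a8 and Krt10, and Plg. Motifs were chosen after the promoter table was at hand. No columns were identical. Other pseudocounts, filters, scalings, weights, a replicate block, removal of the length and GC trend and leaving out libraries were tried.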

Additional observations from a re-analysis of the deposited data

How the results depend on the processing

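As reported, 21 genes and 1 annexin passed. Without a filter 0 genes (limma; 1928 with an unadjusted p under 0.05) and 0 annexins passed, with median-of-ratios scaling 5 and 0, with a fit without trend 1 and 0, with library weights 1446 and 3, with trends in length and GC taken out 49 and 1, and with controls 2 and 3 left out 84 and 2. With quantile normalization 0 annexins passed. Leaving out 1 library gave 0 to 4254 genes, 0 to 4 annexins and 0 to 24 of the related genes, highest without control 1 each time. Of the related genes, 0 passed as reported and 13 with library weights. The annexins' median log2 fold change (0.08) was 0.00101 with median-of-ratios scaling, -0.0218 with controls 2 and 3 left out and 0.0268 to 0.105 without 1 library. Their summed difference (93.0 TPM) was -29.0 TPM with median-of-ratios scaling.

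Signs turned for small log2 fold changes. With median-of-ratios scaling Anxa3 was -0.0538, Anxa4 -0.0578 and Plat -0.0236, and with quantile normalization Anxa4 was -0.00208. With library weights Anxa6 was 0.0317, and with trends in length and GC taken out S100a10 was 0.0175 and Plat -0.0505. With controls 2 and 3 left out Anxa3 was -0.0333, Anxa4 -0.0218, Anxa11 -0.133, Myof -0.0898, Dysf -0.0558, Ano6 -0.0427, Axl -0.0851, S100a10 0.13 and Plat -0.176. Without 1 library the ranges were -0.00679 to 0.0533 for Anxa3, -0.00314 to 0.0471 for Anxa4, -0.107 to 0.0377 for Anxa6, -0.153 to 0.0501 for S100a10 and -0.0378 to 0.169 for Plat. Anxa1, Anxa2, Anxa5, Anxa7 and Anxa8 kept their sign in all 17 settings. The causes were not tested.

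The replicate number as a block left 12 genes and 0 annexins. Same-numbered libraries did not deviate together: across genes the correlations of their deviations were 0.12, -0.01 and 0.08, so the block is not read as pairing. Library weights were computed without full convergence. A fit with a lone control assumes that it varies like the CXCL3 libraries. Over all genes the median SD was 0.09 among CXCL3 libraries and 0.20 among controls, so only effect sizes are given for that fit. Depth is unknown, and 3 libraries a group limit precision.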
